A study of Mus musculus with 2 samples.

Results

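The cells described here are 409 condensate-like dermal cells from the skin of E13.5 mouse embryos in which Hedgehog signalling had been switched on by the SmoM2YFP allele. They are 9.57% (8.71 to 10.5) of the 4272 cells of the mutant library that passed a dermal gate, and come from 8480 mutant barcodes past the cell filters, 11909 mutant barcodes in all and 25475 in the whole series. The cells were chosen by their UMIs, the counted RNA molecules, and each held UMIs of at least 2 of the 4 genes Foxd1, Gal, Sox18 and Sox2. The gate asked for at least 10 UMIs of Col1a1, Col1a2 and Col3a1 together, at most 5 UMIs of Krt5, Krt14 and Krt15, and no UMI of Myod1, Pax7, Cdh5, Ptprc or Sox10. Their other genes were set against 3135 mutant cells of the same gate with no UMI of the 4 genes, called 0-gene cells below.

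Axin2CreER mice had been crossed with mice that carry Rosa-lox-STOP-lox-SmoM2YFP. The title of the mutant library names a dermal SmoM2YFP mutant, and that of the control library, made from littermates, SmoM2YFP alone. CreER is a recombinase that acts when an oestrogen receptor ligand is given, here in cells that express Axin2, and its time of induction is not given in the sources used here. After recombination the cells make SmoM2, a form of the Hedgehog transducer Smoothened that signals without ligand, joined to a YFP tag. Each library pooled dorsolateral flank skin of several embryos and was sorted after DAPI staining, and both were sequenced together on 1 lane, so animals cannot be told apart and no value below has a replicate check. The genotype field of each library names the opposite group to its title (SmoM2 WT for the mutant, SmoM2 MUT for the control), and the groups here follow the titles. Because no test between cells of 1 library stands for animals, ratios and shares carry exact 95% intervals that cover counting error only, and no p-value is given.

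The dermal condensate is a cluster of dermal cells that gathers beneath a hair placode and becomes the dermal papilla of the follicle. It forms in the upper dermis, where cells respond to Wnt signals from the epidermis, and Hedgehog reaching it from the placode acts through the receptor Ptch1 and the Gli transcription factors. Condensate cells are known for leaving the cell cycle and for transcription factors such as Sox2, Sox18, Foxd1 and Trps1.

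In GRCm38 coordinates (GENCODE M21), Foxd1 (ENSMUSG00000078302), a forkhead transcription factor gene, occupies bases 98354242 to 98359305 (plus strand) of chromosome 13. Gal (ENSMUSG00000024907), which encodes the neuropeptide galanin, occupies bases 3409915 to 3414544 (minus strand) of chromosome 19. Sox18 (ENSMUSG00000046470) spans bases 181669836 to 181671640 (minus strand) of chromosome 2, and Sox2 (ENSMUSG00000074637) bases 34650405 to 34652461 (plus strand) of chromosome 3. Both encode SOX transcription factors. Promoter windows of RefSeq (GRCm38.p6), from 250 bases before to 50 bases after a transcript start, were searched on both strands for the GLI motif GACCACCCA, its shorter core CCACCCA, which every match of the longer motif contains, and the TCF/LEF motifs CTTTGAA and CTTTGAT. The windows of Foxd1, at chr13:98353995-98354294 on the plus strand, and of Gal, at chr19:3414495-3414794 on the minus strand, are shown because these genes marked most of the cells, and neither holds a match. Those of Dclk1 (chr3:55242114-55242413, plus strand) and Robo2 (chr16:75092721-75093020, minus strand), 2 of the 15 genes highest in the cells, are shown with their match in capitals, CTTTGAT in Dclk1 and CCACCCA in Robo2, where the match lies at an upstream start, 1 of 3 windows of the gene.
Foxd1: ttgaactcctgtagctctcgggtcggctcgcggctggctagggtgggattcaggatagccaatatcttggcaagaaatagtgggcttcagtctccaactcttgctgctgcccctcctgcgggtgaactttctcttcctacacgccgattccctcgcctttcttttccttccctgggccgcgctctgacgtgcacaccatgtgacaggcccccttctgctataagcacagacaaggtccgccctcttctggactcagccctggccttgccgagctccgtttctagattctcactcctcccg
Gal: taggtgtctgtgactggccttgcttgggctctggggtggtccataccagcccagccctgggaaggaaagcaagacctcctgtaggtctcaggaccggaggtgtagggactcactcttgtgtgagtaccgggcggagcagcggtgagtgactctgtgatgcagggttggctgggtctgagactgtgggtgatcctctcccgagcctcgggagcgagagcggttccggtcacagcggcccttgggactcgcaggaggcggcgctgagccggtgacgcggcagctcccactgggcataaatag
Dclk1: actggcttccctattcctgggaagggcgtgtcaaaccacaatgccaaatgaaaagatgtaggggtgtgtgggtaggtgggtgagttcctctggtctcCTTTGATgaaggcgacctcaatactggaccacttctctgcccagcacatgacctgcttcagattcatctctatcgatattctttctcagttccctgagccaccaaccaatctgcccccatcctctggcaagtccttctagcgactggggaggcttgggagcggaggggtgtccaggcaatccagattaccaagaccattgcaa
Robo2: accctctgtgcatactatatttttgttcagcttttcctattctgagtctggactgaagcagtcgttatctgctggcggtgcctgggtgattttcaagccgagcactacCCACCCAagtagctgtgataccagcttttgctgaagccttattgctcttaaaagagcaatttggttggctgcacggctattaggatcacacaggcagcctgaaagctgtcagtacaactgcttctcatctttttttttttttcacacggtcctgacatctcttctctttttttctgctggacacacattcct
Of the 15 highest genes 12 had a promoter entry, 2 of them (Col7a1 and Robo2) with the GLI core in any of their windows and 1 (Dclk1) with a TCF/LEF motif. Among all 27025 genes with an entry, 10.6% had the GLI core, 9.88% a TCF/LEF motif and 0.289% the longer GLI motif. Of the 15 lowest genes 11 had an entry, and Fibin, Itm2a and Ptn held the GLI core. These counts describe letters in a window and say nothing of binding.

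Of the 409 cells, 376 had a Foxd1 UMI, 290 a Gal UMI, 259 a Sox18 UMI and 56 a Sox2 UMI. The pair Foxd1 and Gal alone was found in 126 cells, Foxd1 and Sox18 alone in 103, and all of Foxd1, Gal and Sox18 without Sox2 in 96. All 4 genes were present in 22 cells. These values chose the cells and are a description. The cells held between 2 and 27 UMIs of the 4 genes, with a median of 5. Just inside the threshold lay 57 cells with 1 UMI of each of exactly 2 genes. Just outside it lay 728 gate cells with 1 gene, of which 468 had a single UMI and 260 had more. At the collagen limit, 110 of the cells had 10 to 12 collagen UMIs, and 119 further mutant cells that met every other condition had 7 to 9.

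**Figure D1:**
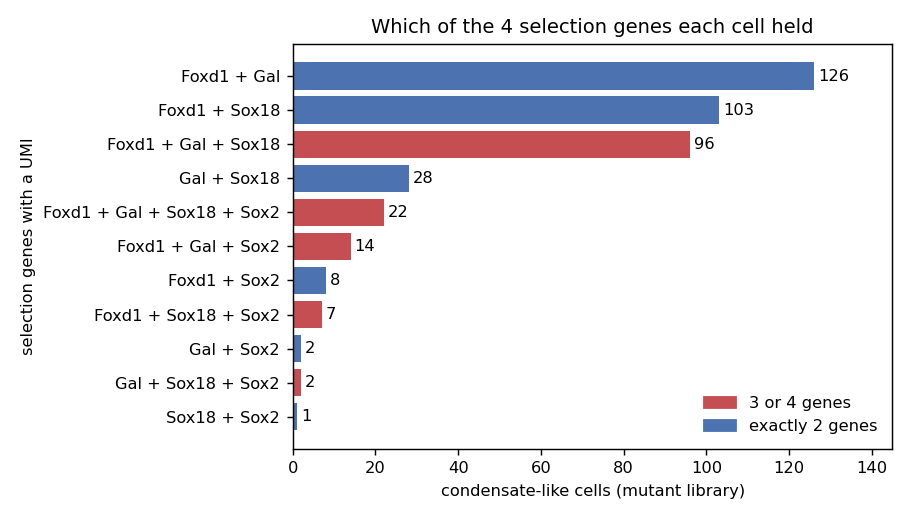
Number of condensate-like cells (x axis) with each combination of the 4 selection genes (y axis), red for cells with 3 or 4 of the genes and blue for cells with exactly 2. Foxd1 with Gal, Foxd1 with Sox18 and Foxd1 with both lead, at 126, 103 and 96 cells.

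The same rule met 1 of 8467 control dermal gate cells (0.0118%), and 87 further control cells held 1 of the genes. As background, 3 of 961 mutant cells in a keratin-rich epidermal gate (0.312%) and 6 of 460 in a muscle gate (1.30%) met it, at median depths of 8350 and 9579.5 UMIs against 6809 in the condensate-like cells. In the control library 0 of 366 epidermal gate cells met it, which at 3 counts allows a share of up to 0.820%, and 0 of 791 muscle gate cells, up to 0.379%. The dermal share lay above both gates in the mutant library and not in the control library.

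Each selection gene can be read apart from itself by choosing cells on the other 3. Foxd1 stood at 397 CPM, its UMIs scaled to the same total of UMIs for every set of cells, in 172 cells with at least 2 of the other 3 genes, against 32.5 CPM in 3550 cells with none of them, 12.2-fold higher (10.9 to 13.7). Gal stood at 288 against 9.98 CPM, 28.9-fold higher (24.6 to 34.04), and Sox18 at 129 against 12.95 CPM, 9.93-fold higher (8.34 to 11.8). Sox2 stood at 24.9 against 0.195 CPM, with 72 UMIs in 398 cells against 4 UMIs in 3139 cells. By each of these 4 choices, the gene left out stood higher in the cells chosen on the other 3. These values come from the genes of the rule and are a description.

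Depth and quality of the cells were close to those of the 0-gene cells, with exceptions. The condensate-like cells held a median of 6809 UMIs and 2496 genes, against 6069 UMIs and 2281 genes in 0-gene cells, and summed to 2969403 against 20503350 UMIs. Hemoglobin genes took 0.0942% against 0.100% of UMIs. The median of the gate's collagen UMIs was 16 against 25. Scrublet called 20 of the condensate-like cells doublets (4.89%), against 31 of the 0-gene cells (0.989%). The libraries shared 48 barcodes, 2 of them among the condensate-like cells. A summed level cannot tell more expressing cells from more RNA per cell, so shares of cells after thinning to 3000 UMIs are added for leading genes.

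Over all other genes with at least 20 CPM in either set of cells, 471 of 6099 (7.72%) were at least 1.5-fold higher in condensate-like than in 0-gene cells and 454 (7.44%) at least 1.5-fold lower. A ratio of at least 5 was found for 40 higher and 44 lower genes. The median log2 ratio over all genes, with 5 CPM added to both values, was 0.05. List counts below use the same limits of 20 CPM and 1.5-fold, and are to be read against 7.72% and 7.44%. Lists overlap, and Lef1, for one, stands in 3 of them.

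The label condensate-like was read against 18 other genes known from condensates. Above the minimum level were 13 of them, and 10 of these were higher and 2 lower (median log2 ratio 1.78). Trps1 (chromosome 15, 50654752 to 50890463, minus strand), a zinc finger repressor needed for hair follicles, was at 161 against 5.12 CPM, 31.4-fold higher (25.4 to 39.2). After thinning, 139 of 404 condensate-like cells (34.4%, 29.8 to 39.3) had a Trps1 UMI, against 43 of 2936 0-gene cells (1.46%). The unthinned shares were 51.3% and 2.52%, and the share among mutant epidermal gate cells thinned alike was 6.14%. Cdkn1a, which encodes the cell cycle inhibitor p21, was at 456 against 73.1 CPM, 6.24-fold higher (5.80 to 6.72), and after thinning was found in 57.7% against 12.9% of cells, with 0.728% in the epidermal gate. Unthinned, the shares for Cdkn1a were 72.6% and 16.3%. Prdm1, which encodes the repressor Blimp1, was 10.6-fold higher (7.95 to 14.1) at 42.8 CPM, and the T-box gene Tbx18 was 3.42-fold higher (3.05 to 3.82) at 157 CPM.

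Signals of the list did not all stand on one side. Bmp4 was 4.26-fold higher (3.54 to 5.12) at 64.0 against 15.02 CPM, Bmp7 was 5.58-fold higher, and Fst, which encodes the activin antagonist follistatin, was 1.64-fold higher. Tgfb2 was 5.12-fold lower (2.90 to 9.98) with 12 UMIs, and Inhba, an activin subunit gene, was 1.56-fold lower. Rspo3, a Wnt agonist, was at 59.6 against 62.1 CPM. Corin, a protease of the later dermal papilla, had 0 UMIs in the condensate-like cells, and Hey1, Nog, Alpl and Cxcr4 were below the minimum level. This list was chosen with earlier results of these data known, so its count is a description and no independent support for the label.

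**Figure D2:**
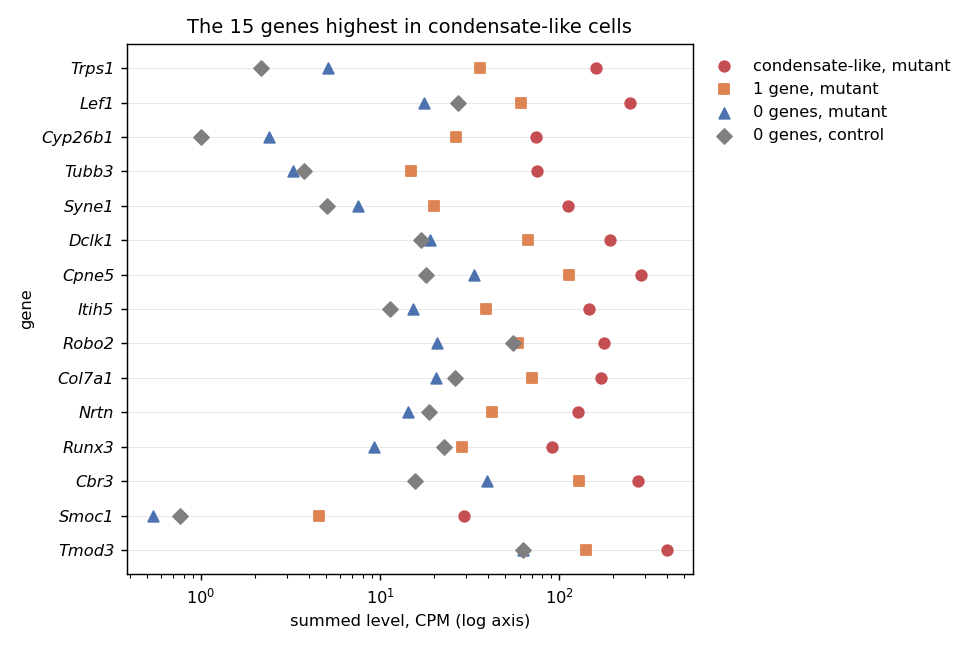
Summed level in CPM (x axis, log scale) of the 15 genes with the highest log2 ratios, 5 CPM added (y axis) in condensate-like cells (red circles), mutant gate cells with 1 selection gene (orange squares), mutant 0-gene cells (blue triangles) and control 0-gene cells (grey diamonds). Cells with 1 gene lie between the condensate-like and the mutant 0-gene cells for all 15, as for Trps1 at 161, 35.9 and 5.12 CPM.

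The 15 highest genes were ranked by log2 ratio with 5 CPM added to both values, which put Trps1 and Lef1 first, although Smoc1 had the highest plain ratio of the 15. Lef1 (chromosome 3, 131110471 to 131224356, plus strand), the transcription factor through which Wnt signals act, was at 250 against 17.7 CPM, 14.2-fold higher (12.5 to 16.1). Cyp26b1, which degrades retinoic acid, was at 74.1 against 2.39 CPM, 31.0-fold higher (22.7 to 43.2). Runx3, a Runt transcription factor, was 9.88-fold higher (8.18 to 11.96). Several of the others belong to the cytoskeleton. Tubb3, a tubulin best known from neurons, was at 75.4 against 3.27 CPM, 23.1-fold higher (17.5 to 30.8). Syne1, which ties the nucleus to actin, was 14.8-fold higher, Dclk1, a microtubule-binding kinase, 10.2-fold, and Tmod3, which caps actin filaments, 6.37-fold at 400 against 62.7 CPM. Secreted or matrix products were encoded by Smoc1 (87 against 11 UMIs, 54.6-fold higher, 29.1 to 113), Itih5 (9.66-fold), Col7a1, the collagen of anchoring fibrils (8.34-fold), and Nrtn, the ligand neurturin (8.94-fold). Robo2, a receptor for Slit proteins, was 8.47-fold higher, Cpne5, a copine, 8.57-fold, and Cbr3, a carbonyl reductase, 6.94-fold.

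Since Tubb3 also marks neurons, the whole neuronal and Merkel cell list was read beside it. Of its 10 genes only Tubb3 passed the minimum level, Stmn2 was just under it at 19.5 against 3.95 CPM, and Nefl and Prph lay at 1.35 against 13.1 CPM and 1.68 against 13.9 CPM. Elavl3, Atoh1 and Krt20 had 0 UMIs, and the list summed to 102 against 37.8 CPM. A Tubb3 UMI was found in 17.8% of thinned condensate-like cells, against 0.920% of 0-gene cells (30.8% and 1.82% unthinned), with 0.104% in the epidermal gate.

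**Figure D3:**
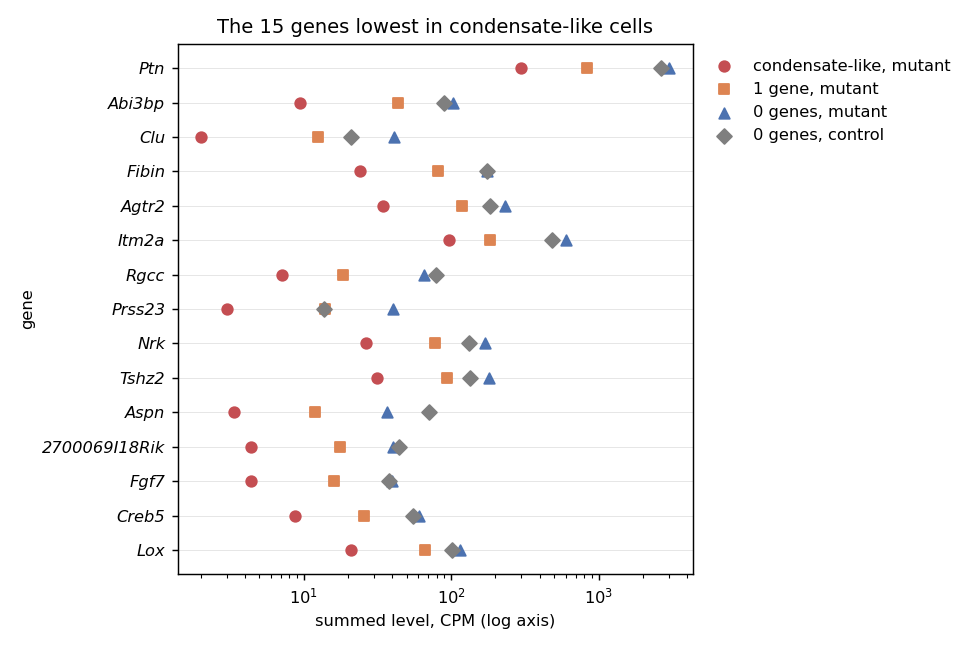
Summed level in CPM (x axis, log scale) of the 15 genes with the lowest log2 ratios, 5 CPM added (y axis) in condensate-like cells (red circles), mutant gate cells with 1 selection gene (orange squares), mutant 0-gene cells (blue triangles) and control 0-gene cells (grey diamonds). Condensate-like cells lie lowest for all 15, as for Ptn at 299 CPM against 3024 CPM in mutant 0-gene cells.

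The 15 lowest genes, ranked in the same way, began with Ptn. Ptn, which encodes the heparin-binding growth factor pleiotrophin, was at 299 against 3024 CPM, 10.1-fold lower (9.45 to 10.8). After thinning, 16.6% of condensate-like cells had a Ptn UMI, against 72.4% of 0-gene cells (27.9% and 81.8% unthinned). Fgf7, a growth factor that acts on epidermis, was 9.07-fold lower (5.27 to 17.1) with 13 UMIs. Matrix genes among them were Abi3bp (10.9-fold lower, 7.52 to 16.4), Aspn, a small leucine-rich proteoglycan (10.9-fold), and Lox, which crosslinks collagen (5.52-fold). Clu, the extracellular chaperone clusterin, was 20.4-fold lower (9.33 to 55.7) with 6 UMIs. Agtr2, an angiotensin receptor, was at 34.7 against 231 CPM, 6.65-fold lower. Itm2a was 6.20-fold lower, Fibin 7.19-fold, Rgcc 9.26-fold, the protease gene Prss23 13.4-fold, the kinase gene Nrk 6.50-fold, and the transcription factor genes Tshz2 and Creb5 5.81 and 6.90-fold. The remaining one, 2700069I18Rik, is annotated as antisense, and since strand use in counting is not given in the sources used here, its value (4.38 against 40.5 CPM) is uncertain.

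Summed levels of Hedgehog targets lay above the control in both sets of mutant cells. Ptch1 and Gli1 were higher in the condensate-like than in the 0-gene cells, while Hhip was within 1.5-fold. Ptch1, the receptor gene and a target of the pathway, was at 466 against 163 CPM, 2.86-fold higher (2.68 to 3.05), and at 5.76 CPM in control 0-gene cells. Thinned shares with a Ptch1 UMI were 73.0%, 29.3% and, in the control, 1.55% (90.7% and 41.8% unthinned in the mutant library), with 2.71% in the mutant epidermal gate. The mutant 0-gene set thus mixed cells with and without a Ptch1 UMI. The part of that mixture in the ratios of summed levels was not tested. The effector gene Gli1 was 2.02-fold higher (1.69 to 2.41) at 55.2 against 27.4 CPM. Hhip, a secreted Hedgehog antagonist, was at 139 against 128 CPM, a ratio of 1.09 (0.978 to 1.21), and was highest, at 210 CPM, in cells with 1 selection gene. The eYFP reporter was at 33.0 against 24.7 CPM, a ratio of 1.34 (1.07 to 1.66), and at 0.404 CPM in control cells. After thinning, 9.41% (6.74 to 12.7) of condensate-like and 6.78% (5.90 to 7.75) of mutant 0-gene cells had an eYFP UMI (20.8% and 13.7% unthinned), with 0.104% in the mutant epidermal gate. Of 8 measured receptors and transducers, Gli2 was 1.69-fold higher and the co-receptor gene Cdon 2.50-fold lower. The other 6 were within 1.5-fold, with Smo at 73.4 against 65.1 CPM. Of 8 wider targets, Ccnd1, Cdk6 and Bcl2 were higher and Ntn1 and Osr1 lower. For Ptch1, Gli1, Hhip and the reporter, the 2 sets of mutant cells thus differed less from each other than either did from the control.

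Wnt targets stood higher as a group. Among 14 measured targets 11 were higher and none lower, and their median log2 ratio was 1.24. Axin2, a feedback inhibitor and the driver gene of the recombinase, was at 188 against 44.1 CPM, 4.25-fold higher (3.82 to 4.73). Whether the CreER allele alters its UMI count was not tested. Nkd1, an inhibitor of the pathway, was 6.03-fold higher (5.39 to 6.74), the antagonist gene Wif1 7.80-fold, the Wnt deacylase gene Notum 7.38-fold (5.08 to 10.7), and the membrane inhibitor gene Apcdd1 3.27-fold. Dkk1, a secreted inhibitor, was within the limit at 204 against 148 CPM, a ratio of 1.39 (1.27 to 1.51). Of 6 measured Wnt and R-spondin ligands, Wnt6 was 4.63-fold and Wnt4 2.12-fold higher, and Wnt2 4.40-fold and Wnt11 1.75-fold lower. Receptors and inhibitors numbered 10, with 2 higher and 5 lower (median -0.62). The lower ones were the secreted Frizzled-related genes Sfrp2 (4.74-fold) and Sfrp1 (4.20-fold), Dkk2 (4.49-fold), Sostdc1 (3.69-fold) and Fzd1 (2.89-fold), and the higher ones Ror2 and Fzd3.

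Of 13 Wnt targets above the minimum level, 7 were lower and 2 higher in mutant than in control 0-gene cells, where 3.65% of all genes were lower and 3.97% higher. The higher ones included Dkk1, at 148 against 46.8 CPM, and Axin2 was within 1.5-fold, at 44.1 against 42.0 CPM. Notum was at 20.9 CPM in condensate-like cells, 2.83 CPM in mutant 0-gene cells and 21.3 CPM in control 0-gene cells. Crabp1, a retinoic acid binding protein gene of the upper dermis, was at 2166, 874 and 2253 CPM in the same order. Nkd1 was at 200, 33.2 and 96.7 CPM, and the signal gene Bmp4 at 64.0, 15.02 and 43.2 CPM. For Notum and Crabp1 the condensate-like cells thus lay within 1.5-fold of the control cells, and for Nkd1 above both sets. Over all genes, 544 of 6171 (8.82%) were at least 1.5-fold higher and 506 (8.2%) lower in condensate-like than in control 0-gene cells. Mutant 0-gene cells differed from the control in fewer, with 235 of 5915 genes (3.97%) higher and 216 (3.65%) lower. These comparisons share their cells and lie between single libraries. The rule for 0-gene cells left out 1137 of 4272 mutant gate cells (26.6%) but 88 of 8467 control gate cells (1.04%). Wnt targets summed to 1746 CPM in the mutant cells with 1 gene and 2682 CPM in condensate-like cells. In 0-gene cells they summed to 1262 CPM in the mutant and 1629 CPM in the control. The part of this unequal choice in the differences between the 0-gene sets was not tested.

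**Figure D4:**
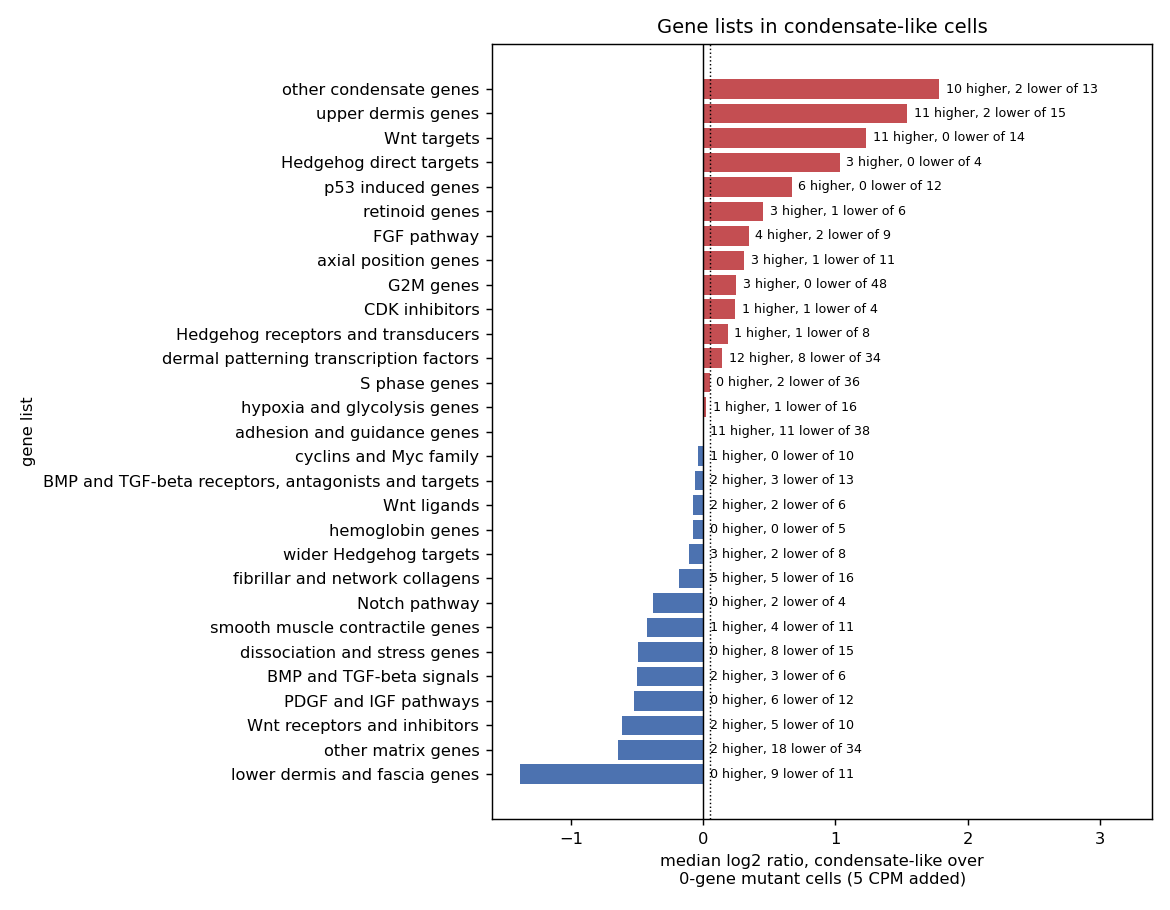
Median log2 ratio (x axis, 5 CPM added to both values) of condensate-like over mutant 0-gene cells for the gene lists, other than cell type markers, with at least 4 measured members (y axis), with the number higher and lower by 1.5-fold and the number measured. The dotted line is the median of all genes, 0.05, and the lists run from 1.78 for other condensate genes to -1.39 for lower dermis and fascia genes.

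The cells held more RNA of upper dermis genes and less of lower dermis genes. In the upper dermis list 11 of 15 genes were higher and 2 lower (median 1.54). The higher ones included Crabp1 (2.48-fold, 2.41 to 2.55), Twist2 (2.97-fold), a transcription factor of dermal progenitors, and Col23a1 (3.44-fold). Ntn1 and Sfrp2 were the lower ones. In the list of the lower dermis and fascia 9 of 11 measured genes were lower and none higher (median -1.39). Dpt, which encodes dermatopontin, was 12.4-fold lower (5.96 to 30.9) with 7 UMIs, the microfibril gene Mfap5 8.70-fold, the surface marker Cd34 6.37-fold and the imprinted gene Dlk1 2.63-fold at 720 against 1893 CPM. The upper dermis list shares Trps1, Lef1, Prdm1, Axin2, Apcdd1, Dkk1, Twist2, Sfrp2 and Ntn1 with the condensate, Wnt and Hedgehog lists, so its count is in part theirs.

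Matrix genes outside the gate's collagens stood lower for the most part. Among 34 measured matrix genes 18 were lower and 2 higher (median -0.65). Postn, which encodes periostin, was 4.06-fold lower (3.49 to 4.74), the proteoglycan genes Ogn and Dcn 4.60 and 2.35-fold, and Thbs2 6.20-fold. Hapln3, a hyaluronan link protein gene, was 3.83-fold higher (3.30 to 4.44) and Has2, a hyaluronan synthase gene, 3.34-fold. Of 16 collagens 5 were higher and 5 lower. Beside Col7a1 these included Col8a1 (2.38-fold higher) and Col6a3 (1.71-fold higher), and on the other side Col11a1 (4.14-fold lower) and Col14a1 (2.40-fold lower). The gate's own collagen UMIs were fewer in the condensate-like cells, at the medians given above, and the part of this in the matrix counts was not tested.

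Among 11 contractile genes 4 were lower, 1 was higher and 6 were within 1.5-fold (median -0.42). Acta2, smooth muscle actin, was at 173 CPM in condensate-like cells, 628 CPM in mutant 0-gene cells and 185 CPM in control 0-gene cells, 3.63-fold lower (3.32 to 3.97) within the mutant. Tpm1 was 2.27-fold lower, and Pdlim3 1.74-fold higher at 51.2 against 29.4 CPM. Markers of mural cells summed to 79.5 against 164 CPM, with Kcnj8 6.32-fold lower among 2 measured of 10 and Higd1b at 0 UMIs, and their part in the contractile values was not tested.

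Transcription factors of dermal patterning went both ways, with 12 of 34 higher and 8 lower. Runx1 was 4.46-fold higher, Zeb2, a repressor of epithelial genes, lay at 357 against 119 CPM and Sox11 at 538 against 183 CPM. The nuclear factor I genes Nfib, Nfia and Nfix were all lower, Nfib 3.76-fold (3.35 to 4.23) at 104 against 390 CPM, and Meox2 was 4.04-fold lower. Adhesion and guidance genes were split, with 11 of 38 higher and 11 lower. The plexin receptor gene Plxna4 was 9.09-fold higher (7.10 to 11.7), beside the semaphorin genes Sema6d (4.78-fold higher), Sema6a (2.43-fold higher) and Sema3c (3.61-fold lower). The ephrin receptor gene Epha3 was 5.20-fold lower and the chemokine gene Cxcl12 4.98-fold lower (3.99 to 6.29).

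Growth factor receptors and ligands differed by family. Of 9 measured FGF genes 4 were higher, Fgf10, a ligand of early follicles, 2.58-fold (2.21 to 3.02), the receptors Fgfr2 and Fgfr1 2.79 and 2.12-fold, and the inhibitor gene Spred1 2.47-fold. Fgf7 and Spry4 were lower. Of 12 PDGF and IGF genes 6 were lower and none higher, at a median of -0.52, among them Igfbp3 (3.17-fold), Igfbp5 (2.62-fold), Igf2r (2.41-fold) and Igf2 (1.81-fold). Igfbp4 and Pdgfa were the others. The Id genes Id2, Id3 and Id4, which are targets of BMP signalling, were at 38.4 against 98.4, 256 against 385 and 12.1 against 29.5 CPM, beside Bmp4 and Bmp7, which were higher, and Bmp2, which was 2.90-fold lower (2.08 to 4.15). Id2, Id3 and Id4 were the 3 lower of 13 measured BMP and TGF-beta receptors, antagonists and targets. Of that list Tgfbr3 and Fst were higher, 8 were within 1.5-fold, and the median was -0.065. The list of BMP and TGF-beta signals held 2 higher and 3 lower of 6 (median -0.51). Retinoid genes held 3 higher of 6, Cyp26b1, Crabp1 and the receptor gene Rarg (1.81-fold), and 1 lower, Crabp2 (1.84-fold). Of 4 Notch genes Hes1 and Notch1 were lower, 1.61 and 1.54-fold, but among cells with no G2M UMI the log2 ratio of Notch1 was 0.54.

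Genes induced by p53 were higher in 6 of 12, with none lower and a median of 0.67. The list summed to 1312 CPM in condensate-like, 889 CPM in mutant 0-gene and 412 CPM in control 0-gene cells. Trp53inp1 was 3.63-fold higher (3.01 to 4.37), Plk2 3.28-fold, the death genes Bbc3 and Pmaip1 2.53 and 2.42-fold, Zmat3 1.91-fold and Ccng1 1.87-fold. Mdm2, Bax and Phlda3 were within 1.5-fold. Cdkn1a, itself a p53 target and counted above, goes with them. Among the other CDK inhibitors Cdkn1c, which encodes p57, was 1.60-fold lower (1.55 to 1.64) at 1931 against 3082 CPM. Its level was uneven within the set, at 2948 CPM in condensate-like cells with a Sox2 UMI and 1774 CPM in those without. The CDK inhibitor list includes Cdkn1a. It summed to 3233, 2282, 2132 and 3208 CPM over mutant cells with 0, 1, 2 and 3 to 4 selection genes. Dissociation and stress genes, which respond to handling, had 8 of 15 lower and none higher, at a median of -0.50, with Fos 2.17-fold and Egr1 1.82-fold lower.

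The cell cycle genes themselves were mostly within 1.5-fold. Of 36 S phase genes 2 were lower, and of 48 G2M genes 3 were higher, Nusap1, Psrc1 and Cenpf by 1.59, 1.59 and 1.55-fold. Among cells with no G2M UMI the log2 ratio of Nusap1 turned to -0.21. After thinning to 3000 UMIs, 240 of 404 condensate-like cells (59.4%, 54.4 to 64.2) had a UMI of at least 1 of 8 G2M genes, against 1908 of 2936 0-gene cells (65.0%, 63.2 to 66.7). The difference was -5.58 points (-10.8 to -0.443, an interval built from the bounds of both shares). Unthinned shares were 67.5% and 72.1%, and the thinned share in the mutant epidermal gate was 82.9%. In control 0-gene cells the thinned share was 53.9% (52.9 to 55.0), below both mutant sets. With at least 3 UMIs of the 8 genes required, the difference turned to 1.83 points, so its direction depends on that limit. The level of G2M genes, summed, was 7828 against 6717 CPM.

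**Figure D5:**
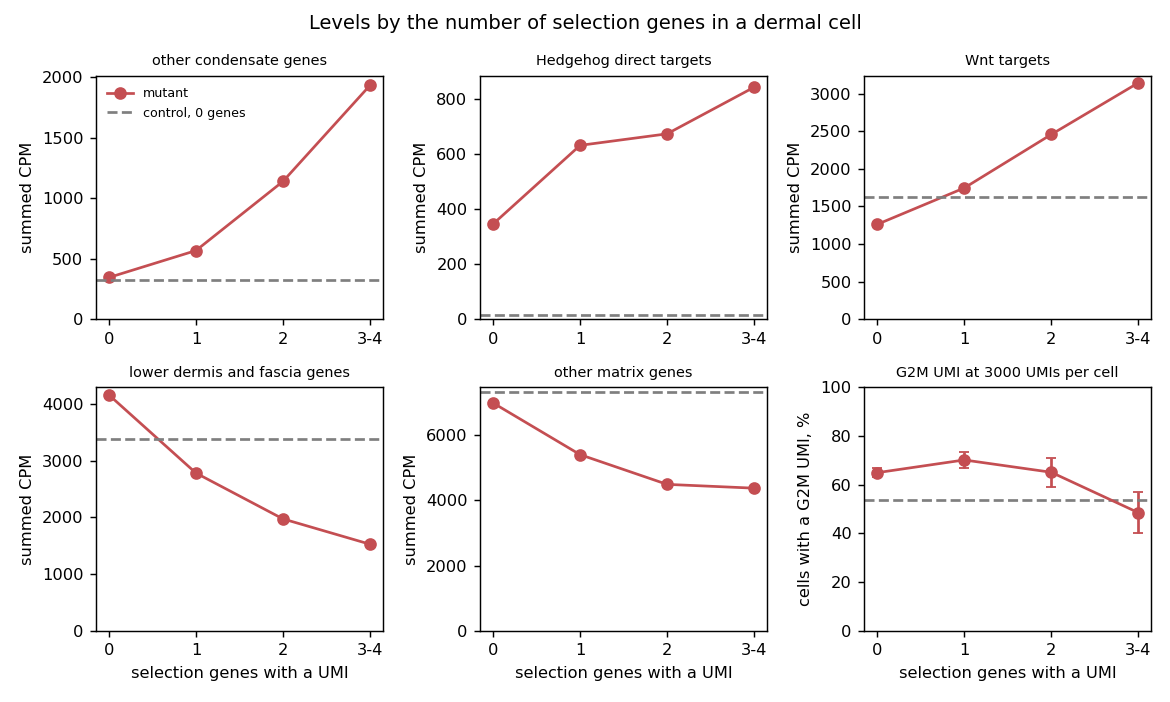
Summed CPM of 5 gene lists, and the share of cells with a G2M UMI at 3000 UMIs per cell with its exact 95% interval (y axes), by the number of selection genes with a UMI in a mutant gate cell (x axis), with control 0-gene cells as a dashed grey line. Condensate genes stand at 345, 567, 1138 and 1932 CPM over 0, 1, 2 and 3 to 4 genes, and the G2M share at 65.0%, 70.2%, 65.2% and 48.6%.

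The summed level of 15 of 29 lists with at least 4 measured members moved one way at each step of gene number, 8 of them higher and 7 lower, and that of the other 14 did not. The steps are those of the rule itself, the lists overlap, and the share of all genes that moved so was not counted. The list count is therefore a description. Over cells with 0, 1, 2 and 3 to 4 genes, other condensate genes summed to 345, 567, 1138 and 1932 CPM and Wnt targets to 1262, 1746, 2459 and 3145 CPM. Lower dermis genes summed to 4159, 2782, 1974 and 1527 CPM. Acta2 stood at 628, 489, 224 and 67.2 CPM. The order was kept at each step for these 3 lists and for Acta2. Dkk1 did not follow it, at 148, 248, 234 and 143 CPM, nor did Hhip, at 128, 210, 142 and 132 CPM. The share of thinned cells with a G2M UMI was 65.0%, 70.2%, 65.2% and 48.6%, and the interval of the last (40.0 to 57.2) lay below those of the others (lowest bound 59.1). Median UMIs over the 4 steps were 6069, 7109.5, 7008 and 6456.

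The cells varied among themselves by which genes they held. These comparisons, and their limit of 100 CPM for the 8 highest and 8 lowest genes, were chosen after the combinations had been counted. The 140 cells with Foxd1 and Gal but no Sox18 UMI were set against the 110 with Foxd1 and Sox18 but no Gal UMI. Runx3 was at 133 against 32.1 CPM, 4.15-fold higher (2.77 to 6.41), Nkd1 at 289 against 76.9 CPM, Robo2 at 226 against 81.2 CPM and Trps1 at 176 against 65.2 CPM. Lef1 and Axin2 were 2.40 and 2.28-fold higher. The 2 genes with the highest ratios were Cma1 and Cpa3, proteases of mast cells, and over all condensate-like cells most UMIs of mast cell genes lay in 2 cells called doublets. Acta2 was at 78.3 against 362 CPM, 4.62-fold lower (3.58 to 6.04), Postn 3.47-fold lower, Nfib 2.90-fold lower and Hhip 2.62-fold lower, while Ptch1 had 490 against 406 CPM and for Gli1 the levels were 46.1 and 50.2 CPM. The cells with Gal but no Sox18 thus held more Lef1, Axin2 and Nkd1. Those with Sox18 but no Gal held more Acta2, Postn and Hhip, and Ptch1 and Gli1 were within 1.5-fold. Median depths were 6269 and 7704.5 UMIs, and thinned G2M shares 62.8% and 70.9%. In the 118 cells with Foxd1, Gal and Sox18 that share was 47.0% (37.7 to 56.5).

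A pair of axial position genes also parted these cells. Hoxa9 had 45 UMIs in the cells with Gal but no Sox18, against 3 in those with Sox18 but no Gal (48.3 against 3.21 CPM). Hoxa7 had 39 against 8 (41.9 against 8.55 CPM). Hoxc4 and Hoxc5 were within 1.5-fold, at 39.7 against 34.2 CPM and 48.3 against 42.7 CPM. Hoxd8 was at 41.9 against 24.6 CPM, a ratio of 1.70 (0.992 to 2.99). Over the whole set, 3 of 11 axial position genes were higher in condensate-like than in 0-gene cells, Hoxa9 2.12-fold, Hoxa7 1.76-fold and Hoxc4 1.54-fold, and 1 was lower, Hoxb2 by 1.64-fold. Embryos and positions were pooled, and their part in the difference was not tested.

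The 56 cells with a Sox2 UMI were set against the 353 without. Sox9 and Pdgfa lay below the limit of 100 CPM and stand here as members of the gene lists. Sox9 was at 80.7 against 15.9 CPM, 5.06-fold higher (3.09 to 8.24), and the growth factor gene Pdgfa at 63.1 against 14.0 CPM, 4.51-fold higher (2.59 to 7.72). Over all condensate-like cells Pdgfa was at least 1.5-fold lower than in 0-gene cells. Bmp4 was 3.07-fold higher (2.22 to 4.19), Prdm1 2.77-fold, Rspo3 2.48-fold and Trps1 1.99-fold. Lower in them were Wnt4 (2.25-fold) and histone genes such as Hist1h1b, at 93.3 against 396 CPM, whose reads may be shared with near-identical copies. The cells with Sox2 thus stood higher in Bmp4, Prdm1, Rspo3 and Trps1 of the condensate list, with 38 to 112 UMIs in them behind each. Of the 56 cells with Sox2, 45 held 3 or 4 selection genes, against 96 of the 353 without. Over all condensate-like cells, those with 3 or 4 genes stood at 248 CPM of Trps1, 109 CPM of Bmp4 and 65.1 CPM of Prdm1, against 119, 42.5 and 31.97 CPM in those with 2, and the part of gene number in the Sox2 values was not tested.

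Markers of other cell types were scarce in the condensate-like cells. Muscle markers summed to 24.2 against 39.0 CPM with Myf5 and Mymk at 0, endothelial markers to 18.9 against 31.2 CPM with Tie1, Esam and Plvap at 0, and glial and melanoblast markers to 7.75 against 7.80 CPM with 7 of 10 at 0. Myod1, Pax7, Cdh5 and Sox10 are at 0 by the gate. Epidermal markers summed to 67.4 against 49.9 CPM, with Krt8, Krt18 and Trp63 at 0 and most of the sum from Krt10 and Wnt6. The dermal markers Pdgfra, Prrx1, Col5a1, Col6a1 and Lum were within 1.5-fold, Twist2 was higher and Dpt and Dcn lower. Blood markers summed to 72.7 against 53.8 CPM, of which the mast cell protease gene Cpa3 made 52.9 CPM. Of 363 UMIs of Cpa3, Cma1 and Tpsb2 in the condensate-like cells, 333 lay in 2 cells, both called doublets.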

How the data were processed

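Both libraries were made with the Chromium Single Cell 3' v3.1 kit per the labels' protocols, and the deposited matrices hold UMI counts per barcode and gene, made with Cell Ranger 5.0.1 on mm10 per the submitters' processing notes, with an eYFP feature per the file headers. No normalization had been applied by the authors to these counts. Cells needed at least 1000 genes, at most 10% mitochondrial and under 5% hemoglobin UMIs. Counts were summed over the cells of a set and given as CPM. A gene with at least 20 CPM in either set was counted as higher or lower at a ratio of 1.5, and ratios carry exact conditional binomial and shares exact Clopper-Pearson 95% intervals, which cover counting error only. With 1 library per group no test was made, and the script was tested on simulated data. Thinning drew 3000 UMIs per cell and left out shallower cells. Doublets were called with Scrublet (scanpy 1.11.5, expected share 8%, 269 mutant calls) and kept, with their removal as an alternative. The genes of the rule and gate were left out of the counts.

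Named genes were the 15 highest and 15 lowest by log2 ratio with 5 CPM added, up to 6 members per gene list at the largest ratios, and 12 always named; further list members are named where a sentence completes its list. The cells and lists were chosen with earlier results of these data known. The splits by Gal, Sox18 and Sox2, the epidermal gate (at least 20 keratin and at most 9 collagen UMIs) and muscle gate (at least 2 UMIs of muscle genes), the motifs, the low-collagen and mast gene checks, and the alternative on cells with a Foxd1 UMI were chosen after the data had been seen. Alternatives covered minimum level, added CPM, TMM scaling, thinning, doublets, depth, the rule itself and cells with no G2M UMI. Library totals were 73809828 mutant and 109629368 control UMIs. Python 3.11.15, numpy 2.4.6, scipy 1.17.1 and pandas 2.3.3 were used. Some members of the gene lists are not reported here.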

Additional observations from a re-analysis of the deposited data

Results flagged for a closer look

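Outside the dermal gate, 279 of 4208 mutant cells past the filters (6.63%, 5.90 to 7.42) also held UMIs of at least 2 of the 4 genes, against 1 of 3561 control cells (0.0281%). These cells stand in no comparison above. Of the 279, 252 had under 10 collagen UMIs, 13 had over 5 keratin UMIs, 21 had a UMI of a gene that bars a cell from the gate and 22 were called doublets. Their median depth was 4824 UMIs, against 6809 in the condensate-like cells, and the part of depth in their low collagen UMIs was not tested.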

How the results depend on the processing

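No paired analysis was possible because each group has 1 library. The direction of the thinned G2M difference depended on its limit: -5.58 points turned to 1.83 with at least 3 UMIs required, and was -16.4 with at least 3 of the 4 genes and -13.0 with the rule applied after thinning. The share of 9.57% was 5.99% with the rule applied after thinning, 3.30% with at least 3 genes, 5.18% with at least 20 collagen UMIs and 10.9% among cells of 5000 to 15000 UMIs. Counts of 471 higher and 454 lower genes became 781 and 707 at a minimum of 10 CPM, 201 and 222 at 50 CPM, 878 and 711 with at least 3 genes, and 1125 and 882 among cells with no G2M UMI. In the other settings, TMM scaling, doublets left out, thinning, depth range, cells with a Foxd1 UMI and mast gene cells left out among them, both counts were within 1.5 times. Of 188 named genes 4 turned direction in some setting, as did 1 of 37 list medians. Without a turn, ratios counted as moved and not as the same numbered 92 of the 188 with at least 3 genes. They numbered 121 among cells with no G2M UMI and 42 after thinning. On the log2 scale, Cpa3, the 1 measured gene of the blood list, turned to -0.24 without doublets and -1.89 with at least 3 genes, and Pdgfa to 0.069 with at least 3 genes. Among cells with no G2M UMI, Notch1 turned to 0.54 and Nusap1 to -0.21. The cause was not tested. Values with few UMIs, such as those of Clu, Dpt and Tgfb2, are limited by counting.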

Other observations

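Of the cells outside the gate, 246 met every condition except the collagen minimum, with a median of 6 collagen UMIs and 4540.5 UMIs in all, and 2 were called doublets. This set was chosen after the data had been seen. All 15 of the highest genes were at least 1.5-fold higher in them than in the mutant 0-gene dermal cells, and all 15 of the lowest at least 1.5-fold lower, with Fgf7 at 0 UMIs. Trps1 stood at 281 CPM, Lef1 at 344 CPM and Cdkn1a at 674 CPM, against 5.12, 17.7 and 73.1 CPM in the 0-gene cells. Ptn stood at 49.7 against 3024 CPM. The 15 highest and 15 lowest genes had been ranked against the same 0-gene cells, and the 246 cells met the same rule of selection genes. The share of all genes that stood at least 1.5-fold higher or lower in the 246 cells was not counted. The counts of 15 are therefore a description and no independent check. The collagen minimum left out cells with the same directions for these 30 genes, and the share of 9.57% holds for cells above that minimum. The 0-gene cells set against them had passed the collagen minimum, with a median of 25 collagen UMIs. The part of this difference in collagen in the lower genes was not tested.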
